A study of Mus musculus with 6 samples.

Results

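The enzymes that build the main phospholipids of cell membranes were followed in mouse embryos at the 2-cell stage. The set holds 10 genes picked by symbol for their known place in this synthesis: Chka, Chkb, Etnk1, Pcyt1a, Pcyt2, Cept1, Pemt, Ptdss1, Ptdss2 and Pisd. All 10 passed the filter on low counts and are among 16020 genes tested, out of 30967 genes with at least 1 count in some library. A count was found in every library for 9 of them, the exception being Chkb.

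Total RNA was sequenced from groups of 3 control and 3 delipidated libraries, and 3 embryos were combined for each library. In the delipidated group, zygotes were spun in the presence of cytochalasin B and the gathered lipid droplets were sucked out through an opening made in the zona pellucida with a laser. Controls were cultured embryos that had not been manipulated. The groups thus differ in the spinning, the drug, the sucrose solution added between spins and the opening as well as in the lipid. Both groups were wild type embryos of F1 (C57Bl/10 X CBA/H) females mated with F1 males. They were collected as zygotes, kept in KSOM medium free of fatty acids from 0.5 to 2.0 days post coitum and labelled day 2. Embryos of several females were mixed before they were allocated, so a library is a mixed pool and not 1 female, and p-values measure only the spread between these pools, which may be partly technical.

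Counts in genes came to between 12164963 and 16165958 per control library (median 12980787) and between 14683741 and 20059460 per delipidated library (median 16332103). Genes with at least 1 count numbered 22855, 22437 and 20582 in controls 1, 2 and 3 and 17091, 19408 and 20158 in delipidated 1, 2 and 3. All delipidated libraries thus had fewer detected genes than all controls although their median depth was higher, and the part of this gap in the values below was not tested.

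Phosphatidylcholine and phosphatidylethanolamine are made by parallel branches, often called the Kennedy pathway. A kinase phosphorylates choline or ethanolamine, a cytidylyl transferase activates the phosphorylated base with CTP, and a transferase in the endoplasmic reticulum joins it to diacylglycerol. Phosphatidylethanolamine can also be methylated to phosphatidylcholine, phosphatidylserine is formed by exchanging the head groups of both, and a mitochondrial decarboxylase turns phosphatidylserine back into phosphatidylethanolamine. Lipid droplets are covered by a single layer of phospholipid, much of it phosphatidylcholine, and cleaving embryos need membrane for each division. In the mouse the 2-cell stage is also the time when the embryonic genome is switched on while RNA stored in the oocyte is being cleared.

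The label of the stage was checked against genes known for it. All 10 markers of genome activation at this stage, among them the Zscan4 genes, were detected, with levels in CPM, counts per 1000000 counts of a library, that summed to 443, 177 and 386 CPM in controls 1, 2 and 3 and to 265, 338 and 461 CPM in delipidated 1, 2 and 3. Zfp352 was their most abundant gene. The 13 oocyte and maternal genes, led by Btg4, summed to 4793, 2994 and 4452 CPM in the controls and to 3542, 3688 and 5224 CPM in the delipidated libraries. The groups overlapped in both lists.

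Counts were found for each enzyme of the set in both groups, but at very different levels. Among the parts that belong to Pisd alone, coding ones held few counts. To compare genes, levels were expressed as CPM per kb of the exonic parts of a gene, the stretches into which the annotation divides its exons. A read counts in each part it touches, so a gene cut into many short parts gains level on this scale. On this scale Pcyt1a, the cytidylyl transferase that sets the pace of phosphatidylcholine synthesis, was highest at 45.9 ± 3.88 (SD, n = 6 libraries), at percentile 92.5 of the genes tested. Chka, a choline kinase, followed at 28.4 ± 2.49 CPM per kb, and Ptdss2, which makes phosphatidylserine from phosphatidylethanolamine, at 26.4 ± 5.35. Pemt, the methyltransferase, stood at 18.2 ± 4.91 CPM per kb, which is still at percentile 81.2.

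The remaining members lay much lower on the same scale. Ptdss1, which makes phosphatidylserine from phosphatidylcholine, had 7.89 ± 2.86 CPM per kb, Pcyt2, the ethanolamine counterpart of Pcyt1a, 4.65 ± 1.49 and the transferase Cept1 4.44 ± 1.63. Chkb, a choline kinase encoded by another gene than Chka, had 2.65 ± 1.85 CPM per kb and the ethanolamine kinase Etnk1 1.89 ± 1.14. Pisd, the mitochondrial decarboxylase, came last at 0.258 ± 0.0854 CPM per kb, at percentile 5.03 of the genes tested. This level covers parts of Pisd alone and not those shared with other genes.

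Some steps of this order held in each library and others did not. Pcyt1a was above Chka, Pemt above Ptdss1, Ptdss1 above Pcyt2 and Etnk1 above Pisd in 6 of 6 libraries. For Pisd this counts parts of Pisd alone. With parts shared with other genes added, delipidated 3 had 146 counts over 5750 bases for Pisd and 165 over 14151 bases for Etnk1. Per base Pisd then stood above Etnk1 in that library, but not in the others. Chka and Ptdss2 differed by less than their spread, Chka being higher in 4 of 6 libraries, and so did Pcyt2 and Cept1 as well as Chkb and Etnk1, again with 4 of 6. Ptdss2 was above Pemt, and Cept1 above Chkb, in 5 of 6 libraries. The order depends on what is taken as the gene: over the parts that overlap coding sequence alone, an alternative chosen after the data were seen, Chka led with 148 CPM per kb and Pcyt1a was next with 118. On coding parts the step from Ptdss1 to Pcyt2 turned as well, with 7.89 CPM per kb for Ptdss1 and 12.1 for Pcyt2, which was higher in 5 of 6 libraries. All 13 parts of Ptdss1 overlap coding sequence, among them end parts of 857 and 1434 bases, so its value did not change. Coding parts of Pcyt2 cover 1229 of its 4346 bases. This turn therefore compares genes that were not trimmed alike. By the longest part of each gene Pcyt1a led and Pemt ranked 2, while Pcyt2 ranked 9 of 10.

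**Figure D1:**
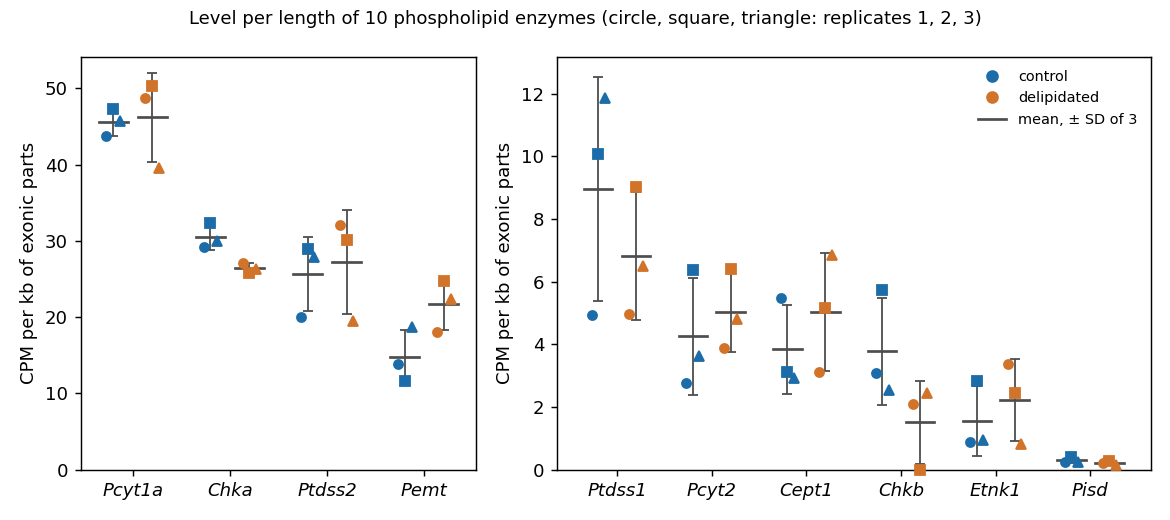
Level per length of the 10 enzymes, in CPM per kb of exonic parts on the vertical axis, with the genes in the order of their mean level and separate scales for the 4 highest and the other genes. Points are single libraries, with control in blue and delipidated in orange, and bars give the mean ± SD of 3 libraries. The libraries of the groups overlap for all genes but Chka and Chkb, where each delipidated library lies under each control.

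Within pairs of related enzymes the levels per length were uneven in both groups. The choline enzyme Pcyt1a exceeded the ethanolamine enzyme Pcyt2 in level per length in each library, by a factor between 7.43 and 15.7. Chka exceeded Etnk1 by a factor between 8.01 and 33.0 on the same scale, and Etnk1 varied more between libraries than Chka. Ptdss2 exceeded Ptdss1 by a factor between 2.35 and 6.46 over all parts. Ptdss2 is cut into 35 parts and Ptdss1 into 13, and by the longest part Ptdss2 was higher in 3 of 6 libraries. On coding parts alone the factor ran from 6.29 to 16.8 for Pcyt1a over Pcyt2. It ran from 25.6 to 118 for Chka over Etnk1 and from 5.34 to 16.3 for Ptdss2 over Ptdss1. The factors for Chka and Ptdss2 thus depend on the parts chosen. A part that overlaps coding sequence is taken whole, which leaves 8470 bases for Etnk1 and the full 3424 for Ptdss1. Coding parts of Chka cover 1726 bases and those of Ptdss2 1627, so these larger factors compare genes that were not trimmed alike. Means of the Pcyt1a to Pcyt2 ratio were 11.9 ± 4.20 in controls and 9.53 ± 2.62 in delipidated libraries (SD, n = 3 each), a difference smaller than the spread.

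Summed over the set, RNA of these enzymes covered nearly the same range with and without the original droplets. The sums were 813, 978 and 907 CPM in controls 1, 2 and 3 and 923, 931 and 785 CPM in delipidated 1, 2 and 3, with means of 900 ± 82.9 and 880 ± 82.2 (SD, n = 3 each). The groups overlapped, and the lowest sum was that of delipidated 3. Chka, Pcyt1a and Ptdss2 together carried between 82.5% and 87.9% of the sum in each library, so it says little about the other enzymes.

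Removal of the lipid droplets was set against each enzyme to see whether the embryos differed in the RNA for membrane lipid synthesis a day later. No enzyme passed the test. With edgeR's quasi-likelihood test, a Benjamini-Hochberg adjusted p under 0.05 and a log2 fold change beyond 1, 0 of the 10 members and 0 of 16020 genes (0.0%) were called. At an unadjusted p under 0.05 the same fit had 0 members and 463 genes, or 2.89% of those tested. DESeq2 without a filter called 9 genes higher and 40 lower, limma-voom called 0, and neither called a member.

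By direction, 6 members were higher and 4 lower after delipidation. Their median log2 fold change was 0.054, beside 8004 higher, 8016 lower and a median of -0.00073 over all genes tested. The members' median took either sign when 1 library was left out, with -0.026 without control 1, -0.033 without delipidated 1, -0.020 without delipidated 2 and up to 0.12 without control 2. Pisd is counted here as lower by its own parts, although its direction depends on the parts counted. The median size of the difference was 0.39 on the log2 scale for members and 0.34 for all genes. A difference beyond 1 was seen for 1 member, Chkb, and for 2665 genes (16.6%). Members whose delipidated libraries all lay above all controls numbered 0, against 3.81% of the genes tested, and those whose delipidated libraries all lay below numbered 2, Chka and Chkb, against 5.05%.

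**Figure D2:**
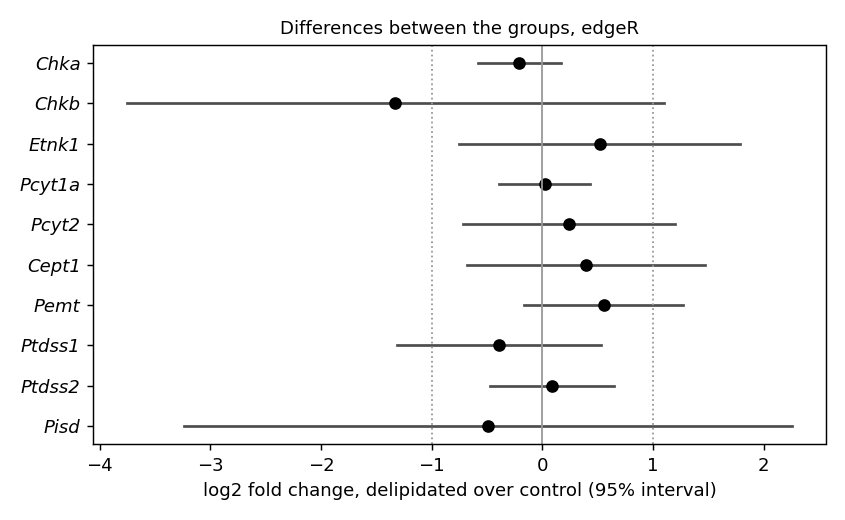
Log2 fold change of each enzyme, delipidated over control, from the edgeR fit over all genes, on the horizontal axis, with the enzymes in rows by role. Points are estimates from 3 against 3 libraries, lines are 95% intervals and dotted lines mark a log2 fold change of 1 in either direction. The intervals of all 10 enzymes include 0, and that of Chkb runs from -3.75 to 1.10.

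The kinases open both branches of the Kennedy pathway. Both choline kinases had less RNA in the delipidated embryos than in the controls by value, Chka slightly and Chkb by more, and neither difference passed the test. Etnk1 had more RNA on average in delipidated embryos but varied widely in both groups.

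Chka (chr19:3851773-3894369, plus strand, GRCm38) is the choline kinase that is essential for early mouse development. It had 351, 388 and 360 CPM in controls 1, 2 and 3 and 326, 309 and 317 CPM in delipidated 1, 2 and 3. The delipidated libraries lay close together and all under the lowest control. Group means were 366 ± 19.4 and 317 ± 8.19 CPM (SD, n = 3 each). For Chka the log2 fold change was -0.21, its standard error (SE) 0.17, with a 95% interval from -0.58 to 0.16. Its unadjusted p was 0.247 and its adjusted p 1.00 by edgeR's quasi-likelihood test with Benjamini-Hochberg adjustment. The exact two-sided permutation test of log2 CPM gave 0.1, the smallest p that 3 against 3 libraries allow.

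The parts of Chka did not all differ in the same direction. In CPM, 8 of its 40 parts had each delipidated library below each control and 1 had each above. Over all genes tested, 3.96% of the parts with a count had each below and 2.94% each above. Of the 23 parts of Pcyt1a, with a log2 fold change of 0.020, 3 had each below and 0 each above. Neighbouring parts can count the same reads, so they are not separate observations. Of the 40 exonic parts of Chka, 20 overlap coding sequence. These had 273, 311 and 278 CPM in controls 1, 2 and 3 and 236, 232 and 203 CPM in delipidated 1, 2 and 3, and the delipidated libraries again all lay below. The other parts, untranslated stretches and exons of transcripts that code for no protein, had 77.1, 77.3 and 82.0 CPM in the controls and 90.3, 77.5 and 114 CPM in the delipidated libraries, where the groups overlap and delipidated 3 stands highest. The share of Chka counts on coding parts was 78.0%, 80.1% and 77.2% in controls 1, 2 and 3 and 72.3%, 74.9% and 64.1% in delipidated 1, 2 and 3, lower in each delipidated library than in each control. This split was made after the data were seen, and the shares were not tested.

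Fitted on coding parts alone, Chka had a log2 fold change of -0.36 and an unadjusted p of 0.0747 with edgeR. Over all alternatives its Benjamini-Hochberg adjusted p ranged from 0.803 to 1.00 with edgeR, DESeq2 or limma-voom. The part with most counts, chr19:3864760-3867670, is 2911 bases long and belongs to a transcript annotated as a retained intron. It had 338, 347 and 302 counts in controls 1, 2 and 3 and 501, 434 and 601 in delipidated 1, 2 and 3. In CPM this is 28.52, 20.98 and 22.96 in the controls and 24.74, 26.66 and 42.43 in the delipidated libraries. On that scale the groups overlap, with control 1 above delipidated 1 and 2, and delipidated 3 stands highest. With this part standing for the gene, the log2 fold change was 0.33, the reverse of that over all parts. Parts that overlap the antisense gene Gm16066 held 4.34% of Chka counts.

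**Figure D3:**
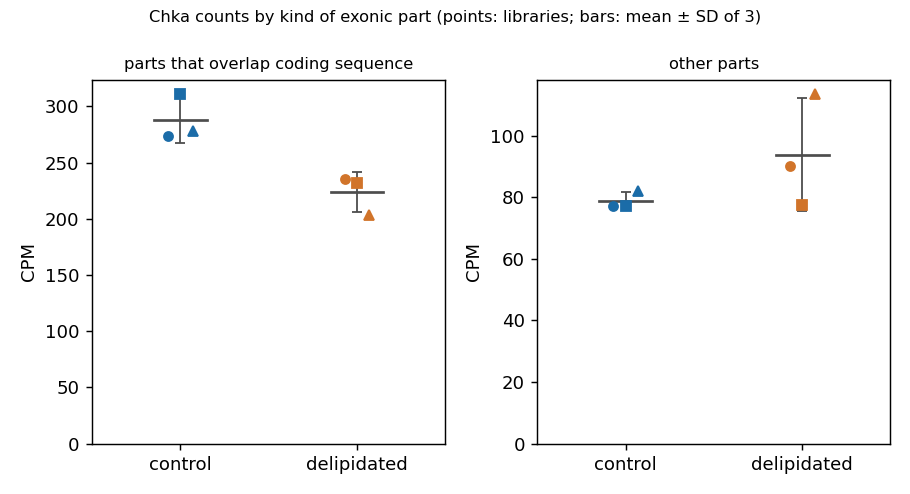
Counts of Chka in CPM on the vertical axis, split into exonic parts that overlap coding sequence (left) and all other parts (right), with control and delipidated groups side by side. Points are single libraries and bars the mean ± SD of 3. Coding parts had 288 ± 20.3 CPM in controls and 224 ± 17.7 CPM in delipidated embryos, the other parts 78.8 ± 2.78 and 93.8 ± 18.3 CPM.

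Chkb (chr15:89426360-89429908, minus strand) encodes a choline kinase known from muscle, where its loss causes a dystrophy. Its level was 9.45, 17.5 and 7.75 CPM in controls 1, 2 and 3 and 6.37, 0 and 7.48 CPM in delipidated 1, 2 and 3, from 112, 290 and 102 counts against 129, 0 and 106. The value of 0 in delipidated 2 allows up to 0.184 CPM at 3 counts, a limit that covers counting error only. The remaining delipidated libraries lay just under the lowest control, and control 2 stood well above all others. The log2 fold change was -1.33 with an SE of 1.11 and a 95% interval from -3.75 to 1.10. Its unadjusted p was 0.256 with edgeR and 0.1 by the exact permutation test. With limma-voom the log2 fold change was -3.23 and the unadjusted p 0.0364. Without delipidated 2 the edgeR log2 fold change was -0.74, so 1 library carries much of the estimate.

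Coverage of Chkb was thin. Of its 38 parts, 21, 27 and 13 had a count in controls 1, 2 and 3 and 8, 0 and 18 in delipidated 1, 2 and 3. The deposited counts list Chkb under an identifier joined with its neighbour Cpt1b, and 92.0% of the counts there lay on parts of Chkb. Of 3944 windows of 100 bases in Chkb transcripts, 1456 also occur in the overlapping gene Gm44502. That gene is not listed in the deposited counts, so it took no counts from Chkb, but its reads there would count for Chkb. Parts that overlap C730034F03Rik on the opposite strand held 6.22% of the Chkb counts. For these reasons the values of Chkb are uncertain.

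Etnk1 (chr6:143167221-143232307, plus strand) phosphorylates ethanolamine. It had 12.5, 40.0 and 13.2 CPM in controls 1, 2 and 3 and 47.9, 34.8 and 11.6 CPM in delipidated 1, 2 and 3. Both groups thus held low and high libraries, and they overlapped over nearly the whole range. For Etnk1 the log2 fold change was 0.52 with an SE of 0.58, and p was 0.388 with edgeR and 0.7 by the exact permutation test. Without delipidated 1 it was 0.082 and without control 2 it was 1.29. A single part, chr6:143203384-143208546, held 39.6% of its counts and overlaps 1700126G02Rik on the opposite strand. Counts within the overlap cannot be assigned to either gene, and how much of the part it covers was not measured. Without parts that overlap the opposite strand the log2 fold change was 0.35.

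The cytidylyl transferases catalyse the regulated step of each branch. Pcyt1a binds to membranes poor in phosphatidylcholine, the surface of growing lipid droplets included, and is active there. Its RNA was abundant, with nearly equal means in the groups, while Pcyt2, the enzyme of the ethanolamine branch, had much less than Pcyt1a but in level per length was still at percentile 56.1 of the genes tested.

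Pcyt1a (chr16:32430921-32475070, plus strand) had 251, 272 and 263 CPM in controls 1, 2 and 3 and 280, 289 and 227 CPM in delipidated 1, 2 and 3. The delipidated libraries lay on both sides of the controls, with delipidated 3 lowest of all and delipidated 2 highest. Means were 262 ± 10.2 and 266 ± 33.6 CPM (SD, n = 3 each), and the log2 fold change was 0.020 with an SE of 0.19. Its 95% interval, from -0.39 to 0.43, covers between 0.762 and 1.35 times the control level. The p of edgeR was 0.916 and that of the exact permutation test 1.0.

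Counts covered nearly all of Pcyt1a, and in each library at least 21 of its 23 parts had a count. The part with most, chr16:32472038-32474704, held 13.5% of the total and had 368, 588 and 404 counts in controls 1, 2 and 3 and 845, 719 and 387 in delipidated 1, 2 and 3. Coding parts had 192, 199 and 200 CPM in the controls and 211, 210 and 155 CPM in the delipidated libraries. By these coding parts, as over all parts, delipidated 3 had the lowest level of Pcyt1a.

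Pcyt2 (chr11:120610087-120617936, minus strand) had 143, 457 and 208 counts in controls 1, 2 and 3 and 342, 453 and 297 in delipidated 1, 2 and 3. For its length and the library sizes this is 2.78, 6.36 and 3.64 CPM per kb against 3.89, 6.40 and 4.82 CPM per kb. Control 2 and delipidated 2 had nearly equal levels above the rest. Between the groups the log2 fold change was 0.24 with an SE of 0.44 and a 95% interval from -0.72 to 1.20, and p was 0.592 with edgeR and 0.4 by the exact permutation test. Without control 1 it was 0.016 and without control 2 it was 0.65. Between 13 and 29 of its 41 parts had a count in a library, and 6 parts had none in all libraries.

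Cept1 (chr3:106502260-106547802, minus strand) joins CDP-choline or CDP-ethanolamine to diacylglycerol and so ends both branches. In level per length it was at percentile 55.1 of the genes tested, and the difference between the groups did not pass the test. It had 17.0, 9.74 and 9.12 CPM in controls 1, 2 and 3 and 9.68, 16.0 and 21.4 CPM in delipidated 1, 2 and 3. Each group mixed libraries near 10 CPM with higher ones. For Cept1 the log2 fold change was 0.39 with an SE of 0.49, and p was 0.441 with edgeR and 0.6 by the exact permutation test. It was 0.75 without control 1 and 0.10 without delipidated 3. Parts that overlap genes on the opposite strand, Dennd2d and Dram2, held 21.1% of its counts, and with the most counted part alone the log2 fold change was -0.050.

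Pemt (chr11:59970614-60046489, minus strand) converts phosphatidylethanolamine to phosphatidylcholine by successive methylation and is best known from liver. It had more RNA on average in delipidated embryos, but the difference did not pass the test. Its unadjusted p was the smallest of the 10 enzymes in the edgeR fit, though not with limma-voom or by the exact permutation test. It had 29.3, 24.5 and 39.3 CPM in controls 1, 2 and 3 and 37.9, 51.9 and 46.9 CPM in delipidated 1, 2 and 3. The only overlap came from control 3, which was slightly above delipidated 1. Means were 31.0 ± 7.56 and 45.6 ± 7.09 CPM (SD, n = 3 each).

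The log2 fold change of Pemt was 0.56 with an SE of 0.33 and a 95% interval from -0.16 to 1.27. Its unadjusted p of 0.117 ranked 1185 among the genes tested, and its adjusted p was 1.00 by edgeR's quasi-likelihood test with Benjamini-Hochberg adjustment. The exact permutation test gave 0.2. Coding parts showed the same picture, with 25.4, 21.3 and 29.0 CPM in controls 1, 2 and 3 and 33.5, 40.7 and 37.3 CPM in delipidated 1, 2 and 3. There the groups did not overlap, a view chosen after the data were seen.

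The annotation gives Pemt alternative first exons, and counts fell unevenly on them. The distal first exon, chr11:60046340-60046489, starts transcripts with a longer coding start. Of its 5 parts, 4 had 14 counts each in control 3, and all had 0 in the other libraries. The middle first exon, chr11:60040105-60040169, had 18, 17 and 8 counts in controls 1, 2 and 3 and 37, 48 and 26 in delipidated 1, 2 and 3. All libraries thus had counts there, and each delipidated library had more than each control, also as CPM, with 1.52, 1.03 and 0.608 CPM against 1.83, 2.95 and 1.84 CPM. This was not particular to that exon: in CPM, 6 of the 22 Pemt parts with a count, the middle first exon among them, had each delipidated library above each control and 1 had each below, against 2.94% and 3.96% of the parts with a count over all genes tested. Neighbouring parts can count the same reads, so they are not separate observations. The proximal first exon, chr11:60036822-60037005, had at most 6 counts on a part in the controls and 0 in all delipidated libraries. These exons were singled out after their values were seen, and no test was made of them.

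The bases before the starts of the middle and the proximal first exon are shown because these counts separate them. RefSeq on GRCm38.p6 places the starts at 60040188 and 60037005 of chromosome 11, on the minus strand. The 250 bases upstream are chr11:60040189-60040438 and chr11:60037006-60037255, and capitals mark CG pairs.
Pemt middle start: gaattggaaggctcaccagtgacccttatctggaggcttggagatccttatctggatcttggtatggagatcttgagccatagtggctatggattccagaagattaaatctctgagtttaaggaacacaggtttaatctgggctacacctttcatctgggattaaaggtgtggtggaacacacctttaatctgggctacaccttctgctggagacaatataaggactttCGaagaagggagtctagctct
Pemt proximal start: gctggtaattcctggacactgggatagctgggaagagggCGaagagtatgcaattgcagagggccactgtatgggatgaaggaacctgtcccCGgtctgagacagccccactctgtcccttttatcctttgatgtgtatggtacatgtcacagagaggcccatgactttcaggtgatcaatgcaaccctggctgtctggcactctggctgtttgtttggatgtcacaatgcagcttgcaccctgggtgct
The middle start had 1 CG pair in 250 bases with 44.8% G and C, and the proximal start 2 pairs with 52.8%. Over the 250 upstream bases of all 32851 mouse promoters of the table, the medians were 6 pairs and 52.4%.

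**Figure D4:**
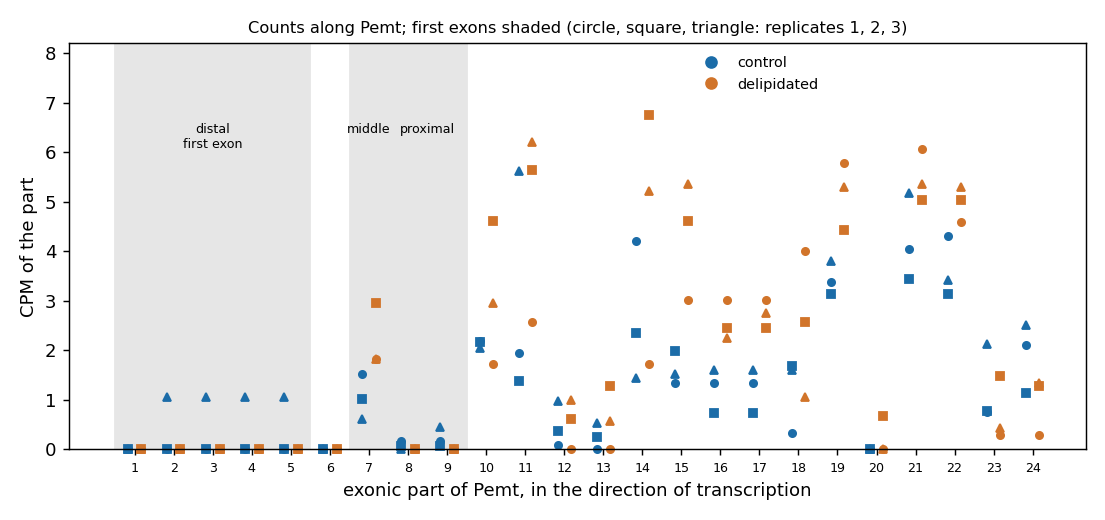
Counts along Pemt, with its 24 exonic parts in the direction of transcription on the horizontal axis and the CPM of each part on the vertical axis. Points are single libraries, control in blue and delipidated in orange, and the grey bands mark the distal, middle and proximal first exons. At the middle first exon the delipidated libraries lie between 1.83 and 2.95 CPM, all above the controls, as they do at 5 more parts downstream.

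Of the 10 enzymes, 8 matched a RefSeq promoter, with 14 promoters of 300 bases in all, while Pcyt2 and Ptdss1 did not match. CG pairs in the 250 upstream bases ran from 0 at a start of Cept1, with 27.6% G and C, to 31 at Etnk1, with 74.8%. The E-box CACGTG, searched on both strands, was in 0 of the 14 promoters and in 7.15% of all promoters. The letters TATAAA were in 1, that of Chkb, against 13.6% of all, and TCACNCCAC, a form of the sterol regulatory element, in 2 overlapping promoters of Pcyt1a against 1.24% of all. A match describes letters in a window and not a bound site.

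Phosphatidylserine is made by base exchange from phosphatidylcholine by Ptdss1 and from phosphatidylethanolamine by Ptdss2. Ptdss2 had the higher level per length of the pair in 6 of 6 libraries over all parts or coding parts, but in 3 of 6 by the longest part alone. Neither differed between the groups by more than the spread between libraries.

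Ptdss1 (chr13:66932830-66998401, plus strand) had 17.0, 34.5 and 40.6 CPM in controls 1, 2 and 3 and 17.0, 30.9 and 22.2 CPM in delipidated 1, 2 and 3. The lowest library of each group had the same level, while the highest belonged to the controls. The log2 fold change was -0.39 with an SE of 0.42 and a 95% interval from -1.31 to 0.53, and p was 0.369 with edgeR and 0.5 by the exact permutation test. It was -0.67 without control 1 and -0.14 without control 3. Parts that overlap Mterf3 on the opposite strand held 9.65% of its counts.

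Ptdss2 (chr7:141122382-141157606, plus strand) had 113, 163 and 157 CPM in controls 1, 2 and 3 and 181, 170 and 110 CPM in delipidated 1, 2 and 3. Each group held 1 low library, control 1 and delipidated 3, and the rest stood near one another. For Ptdss2 the log2 fold change was 0.088 with an SE of 0.26 and a 95% interval from -0.47 to 0.65, and p was 0.739 with edgeR and 0.6 by the exact permutation test. Without control 1 or without delipidated 1 the sign turned, to -0.053 and -0.046.

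Pisd (chr5:32736301-32785646, minus strand) encodes the decarboxylase of the inner mitochondrial membrane that supplies mitochondria with phosphatidylethanolamine. Its own counts were near the limit of detection in both groups. They came to 13, 31 and 15 in controls 1, 2 and 3 and 20, 20 and 10 in delipidated 1, 2 and 3, or 1.10, 1.87 and 1.14 CPM against 0.988, 1.23 and 0.706 CPM. The groups overlapped, with control 2 highest and delipidated 3 lowest. Coding parts held 5.50% of these counts, with 3, 0 and 3 counts in controls 1, 2 and 3 and 0 in each delipidated library. This share is over parts of Pisd alone. Coding bases that Pisd shares with other genes are not in it, so it does not describe the whole gene. The log2 fold change was -0.49 with an SE of 1.25, and p was 0.703 with edgeR and 0.3 by the exact permutation test. Without delipidated 2 it was -0.69 and without control 2 -0.20.

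How much of the locus is Pisd depends on how overlapping genes are handled. The deposited identifier joins Pisd with Prr14l, Gm43695 and Gm20671, and its 28880 counts over the 6 libraries lay mostly on parts of Prr14l alone, with 81.0%. Parts of Pisd alone held 109 counts, or 0.377%, and any part within its exons 357, or 1.24%. The latter divide into 13, 51 and 40 in controls 1, 2 and 3 and 20, 87 and 146 in delipidated 1, 2 and 3. With these shared parts added, the log2 fold change was 1.20, and with the whole joined identifier 0.21, both the reverse of the value for Pisd alone. Both alternatives were chosen after the data were seen, and a direction for Pisd cannot be given.

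Stretches of Pisd that other genes share lie mostly at the same locus. Of 6695 windows of 100 bases in Pisd transcripts, 1063 also occur in Gm20671 and 53 in Gm43695, genes that overlap Pisd, so a read there may belong to either gene. The pseudogene Pisd-ps2 at another locus holds 40 of the same 1063 windows. They make up 139 coding bases at chr5:32739208-32739346 (minus strand, GRCm38), which lie outside the 27 parts counted for Pisd alone. A read wholly within this stretch would match both places, but a longer read or its mate may reach past it. How reads align there was not tested. Pisd-ps1 had a log2 fold change of -0.80 (SE 0.78) and Pisd-ps2 of -0.82 (SE 1.54). Of the remaining members, Chka shared 12 of 12539 windows with other genes and 7 members shared 0.

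Other genes of phospholipid metabolism were taken from lists by function, not by how they moved. In each of the 5 lists 0 genes were called by edgeR, DESeq2 or limma-voom. Genes with an unadjusted p under 0.05 numbered 0 with edgeR, 0 with DESeq2 and 1, Osbpl5 of the transfer proteins, with limma-voom. Named are the genes with the smallest p and the highest level per length of each list.

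The list on the Kennedy pathway and choline transport had 9 of 10 genes tested, with Slc5a7, the choline transporter of neurons, at 0 in all libraries. By direction 1 was higher and 8 lower, with a median log2 fold change of -0.30 against -0.00073 over all genes. The gene that was higher was Slc44a1, a choline transporter, with 0.85 (SE 0.61), and Slc44a4 had -0.88 (SE 0.79). Pcyt1b, the isoform of Pcyt1a from another gene, had the highest level per length of the list at 8.51 CPM per kb, well under Pcyt1a.

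Genes of the branch through CDP-diacylglycerol, which leads to phosphatidylinositol, phosphatidylglycerol and cardiolipin, were all tested, 7 of 7. Of these 5 were higher and 2 lower, with a median log2 fold change of 0.40. Crls1, the cardiolipin synthase, had 0.51 (SE 0.43). Cdipt, which makes phosphatidylinositol, had -0.26 (SE 0.30) and the highest level per length of this branch, 20.6 CPM per kb.

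Enzymes that exchange the acyl chains of phospholipids were tested for 9 of 10 genes, 5 higher and 4 lower, with a median log2 fold change of 0.10. Lclat1, which adds acyl chains to lysocardiolipin, had 58.0, 74.3 and 39.1 CPM in controls 1, 2 and 3 and 99.8, 105 and 61.1 CPM in delipidated 1, 2 and 3. Only delipidated 3 lay within the range of the controls. Its log2 fold change was 0.63 (SE 0.32) with an unadjusted p of 0.0722 by edgeR, and it also had the highest level per length of this list. Mboat2 had a log2 fold change of -0.70 (SE 0.47).

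Among enzymes of phospholipid breakdown 8 of 9 genes were tested, 3 higher and 5 lower, with a median log2 fold change of -0.17. Pld2, a phospholipase that releases choline from phosphatidylcholine, had 12.7, 28.9 and 28.3 CPM in controls 1, 2 and 3 and 37.3, 33.8 and 37.5 CPM in delipidated 1, 2 and 3. Gpcpd1, which cleaves glycerophosphocholine, had 191, 200 and 191 CPM in the controls and 144, 168 and 157 CPM in the delipidated libraries. The groups did not overlap for either gene, higher after delipidation for Pld2 and lower for Gpcpd1. Of the 42 genes tested in the 5 lists, 1, Pld2, had each delipidated library above each control, against 3.81% of all genes tested, and 3, Gpcpd1, Lpgat1 and Prelid3b, had each below, against 5.05%. Pld2 and Gpcpd1 had log2 fold changes of 0.63 (SE 0.39) and -0.31 (SE 0.19), with unadjusted p-values of 0.130 and 0.136 by edgeR. Pld1 had the highest level per length of the list at 74.4 CPM per kb, above Pcyt1a.

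Phospholipid transfer proteins were tested for 9 of 10 genes, 3 higher and 6 lower, with a median log2 fold change of -0.21. Prelid1 and Prelid3b, which carry phospholipids between the mitochondrial membranes, had log2 fold changes of -0.69 (SE 0.37) and -0.47 (SE 0.31). Their unadjusted p-values in the edgeR fit were 0.0915 and 0.163. Osbpl8, which moves phosphatidylserine between the endoplasmic reticulum and the plasma membrane, had the highest level per length of the list at 72.6 CPM per kb.

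Genes that mark other cells were low in most lists. Of 12 genes of cumulus and granulosa cells 4 were tested, Foxl2 and Ptx3 were at 0 in all libraries, and the list summed to 20.2, 28.2 and 82.2 CPM in controls 1, 2 and 3 and 11.3, 32.4 and 18.4 CPM in delipidated 1, 2 and 3. Amhr2 was its most abundant tested gene, but control 3 stood apart through Cyp11a1, which had 653 counts there, 4 and 0 in controls 1 and 2 and 0 in each delipidated library. Leukocyte genes, 4 of 10 tested and led by Csf1r, summed to 12.5, 11.9 and 11.3 CPM in the controls and 9.97, 4.42 and 10.1 CPM in the delipidated libraries, lower in each of these than in each control. None of the leukocyte genes was at 0 in all libraries. Genes of oviduct epithelium summed to 83.1, 227 and 113 CPM and 165, 195 and 111 CPM, nearly all from Epcam, which embryos express themselves.

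The summed level of the stromal list moved with the groups. Of its 8 genes 4 were tested, all 4 lower in delipidated embryos and 2, Vim and Col1a1, with an unadjusted p under 0.05 by edgeR. Not all of the genes too low to test went that way, as Thy1 had 2, 2 and 1 counts in the controls and 0, 40 and 3 in the delipidated libraries, and Dcn 27 counts in delipidated 3 and 0 in the rest. The list summed to 18.5, 18.9 and 29.0 CPM in controls 1, 2 and 3 and 1.93, 5.96 and 4.31 CPM in delipidated 1, 2 and 3. Vim, the most abundant gene of the list, had 152, 145 and 300 counts in the controls and 0 in each delipidated library, with an adjusted p of 0.0721 by edgeR's quasi-likelihood test with Benjamini-Hochberg adjustment. Without Vim the list summed to 5.65, 10.1 and 6.16 CPM in controls 1, 2 and 3 and 1.93, 5.96 and 4.31 CPM in delipidated 1, 2 and 3, where the groups overlap through delipidated 2, which lies above control 1. Col1a1 had 11, 26 and 42 counts in the controls and 0 in each delipidated library, with an unadjusted p of 0.00455 by edgeR and an adjusted p of 1.00. Of the stromal genes DESeq2 called 1 and limma-voom 0. In bulk RNA fewer cells of a type and less RNA per cell cannot be told apart. The part of these genes, and of the leukocyte genes, in the lower values of Chka and Chkb was not tested.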

How the data were processed

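Total RNA of 2-cell embryos was made into stranded libraries after depletion of ribosomal RNA and sequenced as read pairs. Per the submitters' processing notes and methods, base calls were converted with bcl2fastq 2.20, reads trimmed with Trimmomatic 0.36 and aligned with STAR 2.5.2b to mm10, and unique reads in exons counted with featureCounts. The deposited files used here hold raw counts for each exonic part, made by the authors.

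Parts were summed per gene. Of 33309 parts under joined identifiers of overlapping genes, 27968 lie within exons of 1 gene and were given to it. The rest, between 2.49% and 2.57% of a library's counts, was left out. GENCODE M21 on GRCm38 gave names and exons for 49384 of 49644 identifiers. A read over a boundary counts in several parts, so totals exceed the reads and precision appears too high. Levels per length rise for genes with many short parts. For 14 pairs of parts at one place on opposite strands the median ratio of counts was 1.00, so strands were not separated and antisense genes are uncertain.

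Python 3.11.15 and R 4.3.3 were used. Genes kept by filterByExpr (min.count 10, min.total.count 15) were fitted with edgeR 4.0.16 (TMM, quasi-likelihood test, no covariates), with p-values adjusted by Benjamini-Hochberg over all genes and calls at an adjusted p under 0.05 with a log2 fold change beyond 1. CPM use TMM library sizes, and level per length divides by the summed length of a gene's parts. Alternatives were DESeq2 1.42.0, limma-voom (limma 3.58.1), other size factors, filters, parts and lengths, a replicate block and leaving out each library. The fits were tested on simulated data.

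All members are named. From wider lists the text names genes past the thresholds or else those with the 2 smallest p-values, and the gene highest per length, and from marker lists the most abundant gene and those at 0. Members and lists were chosen with earlier results of these data known. Promoters come from RefSeq on GRCm38.p6.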

Additional observations from a re-analysis of the deposited data

How the results depend on the processing

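Under all alternatives 0 members were called. Of 176 log2 fold changes of members under an alternative, 165 kept their direction and 11 turned. With the most counted part of a gene in place of all parts, the log2 fold change turned to -0.050 for Cept1, 0.33 for Chka, 0.097 for Ptdss1 and -0.47 for Ptdss2. Pcyt1a turned to -0.037 on coding parts alone and to -0.020 and -0.047 without delipidated 1 and 2, over a range of -0.047 to 0.12 when single libraries were left out. Ptdss2 ranged from -0.053 to 0.28 in the same way, and was -0.053 without control 1 and -0.046 without delipidated 1. Pisd turned to 1.20 with shared parts added and to 0.21 for the whole joined identifier, and here the parts counted are the cause, while for the other genes the cause was not tested. Coding parts, shared parts and the whole identifier were chosen after seeing the data. Over all alternatives the log2 fold change ran from -3.23 to -0.74 for Chkb, 0.33 to 0.76 for Pemt, 0.082 to 1.29 for Etnk1 and 0.016 to 0.65 for Pcyt2.

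Levels per length moved with the parts used. By the longest part they were 13.2 CPM per kb for Pcyt1a, 12.2 for Pemt, 9.52 for Chka, 4.55 for Ptdss2, 3.66 for Cept1, 3.26 for Ptdss1, 0.694 for Chkb, 0.479 for Etnk1, 0.205 for Pcyt2 and 0.0139 for Pisd. By coding parts they were 148 for Chka, 118 for Pcyt1a, 63.7 for Ptdss2, 32.6 for Pemt, 12.1 for Pcyt2, 7.89 for Ptdss1 and 2.83 for Etnk1. A part was taken whole if any of it overlaps coding sequence, so genes were not trimmed alike. The order of genes above therefore holds for sums over all parts, for Pisd without the parts shared with other genes, and the cause was not tested.

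Over all genes, DESeq2 without a filter called 9 higher and 40 lower, and edgeR without a filter 5 higher and 25 lower. With the other alternatives, among them each library left out, 0 were called, and leaving out libraries gave between 383 and 993 genes at an unadjusted p under 0.05. With the replicate block edgeR called 0 genes, 406 had an unadjusted p under 0.05, and the median log2 fold change of members was 0.043. That median ran from -0.033 to 0.12 when single libraries were left out and was 0.16 with shared parts added. Deviations of libraries of the same number correlated at -0.0836, 0.0698 and 0.0428. The highest correlation, 0.146, was between control 1 and delipidated 3. No pairing by number is seen in these values, and pairing was not tested.

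With 3 pools a group, the 95% intervals of the enzymes with fewer counts reach several-fold differences. Counts per part repeat reads, so the small counts of Pisd and Chkb rest on fewer molecules than they show. Antisense, joined and duplicated stretches limit Chkb, Etnk1, Cept1 and Pisd most. Intervals cover the spread between these pools and not that between females.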
